A study of Rattus norvegicus with 6 samples.

Results

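Sulfate, acetyl and glycine conjugation enzymes were followed in the renal cortex of rats dosed with an aromatic amine, through 10 genes taken by name: the cytosolic sulfotransferases Sult1a1, Sult1b1, Sult1c2, Sult1c3 and Sult1d1, the acetyltransferases Nat1, Nat2 and Nat8, and the glycine acyltransferases Glyat and Glyatl1. They are 10 of 15645 genes named on the array, are read by 18 probes, and were selected on their own levels in treated and control animals, the contrast described here. The members' differences are therefore a description, with no test. Treated animals received 4-hydroxy-m-phenylenediammonium dichloride at 100 mg/kg/day for 4 weeks, in a vehicle not given in the sources used here, and control animals received corn oil for 4 weeks. All 6 were male Sprague-Dawley rats (Crl:CD(SD)), bought at 5 weeks of age and kept on the same basal diet, with 3 animals and 3 arrays per group. Total RNA of the cortex was hybridised to 1-colour arrays, and a level is the log2 signal of a probe relative to the 75th percentile of its array.

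Conjugation joins drugs, hormones and dietary compounds to a small group, and often, though not always, makes them more water-soluble. Sulfotransferases move sulfate from the donor PAPS to phenols, steroids and amines. Arylamine N-acetyltransferases move acetyl from acetyl-CoA to aromatic amines, the class of compound given to these rats. Glycine N-acyltransferase works in mitochondria on acids first activated to acyl-CoA, and makes hippurate from benzoate. In the kidney such enzymes are known chiefly from proximal tubule cells, which also take up organic acids from blood and secrete the conjugates.

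The 250 bases before the annotated start of 4 members are shown, and no result below rests on them. Sult1c2 and Sult1a1 were lower in every treated animal, and Sult1b1 differed most between animals of one group. Nat8 is the member whose window holds an NRF2 element core. Glyatl1 was also lower in every treated animal, and its window is not printed. The sequences are from RefSeq, build GRCr8, read 5′ to 3′ on the gene's strand, and capitals mark matched motifs. The windows are Sult1c2, chr9:7436731-7436980 (+), Sult1a1, chr1:190706113-190706362 (-), Sult1b1, chr14:20771667-20771916 (+), and Nat8, chr4:119837765-119838014 (-).
Sult1c2: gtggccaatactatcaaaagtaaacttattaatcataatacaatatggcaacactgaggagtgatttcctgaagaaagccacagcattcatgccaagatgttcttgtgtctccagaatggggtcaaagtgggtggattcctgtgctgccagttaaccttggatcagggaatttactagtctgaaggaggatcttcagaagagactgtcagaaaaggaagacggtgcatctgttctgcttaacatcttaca
Sult1a1: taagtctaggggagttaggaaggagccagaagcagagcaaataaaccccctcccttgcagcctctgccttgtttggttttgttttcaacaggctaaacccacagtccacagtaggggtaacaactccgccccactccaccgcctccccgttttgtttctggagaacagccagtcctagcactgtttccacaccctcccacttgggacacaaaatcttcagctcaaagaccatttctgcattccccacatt
Sult1b1: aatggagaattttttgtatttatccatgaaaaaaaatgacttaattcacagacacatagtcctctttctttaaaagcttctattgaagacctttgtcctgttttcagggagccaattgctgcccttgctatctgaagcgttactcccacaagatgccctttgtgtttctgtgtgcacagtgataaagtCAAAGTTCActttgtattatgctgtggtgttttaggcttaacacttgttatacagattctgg
Nat8: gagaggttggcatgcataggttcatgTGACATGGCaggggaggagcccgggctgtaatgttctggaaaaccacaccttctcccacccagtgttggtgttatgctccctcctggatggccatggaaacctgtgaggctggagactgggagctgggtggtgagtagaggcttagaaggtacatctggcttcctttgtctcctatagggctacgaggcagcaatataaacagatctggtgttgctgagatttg

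RefSeq promoters were matched for 7 of the 10 members, and 4 motifs were searched on both strands of the 250 bases. The core of the antioxidant response element bound by NRF2, TGACNNNGC, was found in 1 of the 7, Nat8, from 224 to 216 bases before the start, and 10.1% of all 33469 promoters hold it. The core of an HNF4 site, CAAAGTNCA, was found in 1 of the 7, Sult1b1, from 62 to 54 bases before the start, and 1.06% of all promoters hold it. The aryl hydrocarbon receptor core GCGTG was in 0 of the 7, against 25.9% of all promoters, and the HNF1 consensus was in 0 of the 7 and in 1 of all 33469. Motifs and windows were chosen after the values were seen. Each printed window holds at most 1 match, so none overlap, and a match is a description of the letters, not of binding.

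Across the arrays, 68.9% to 69.6% of 61537 non-control probes were well above background in treated animals and 63.1% to 67.7% in controls. Slide 2 held every treated array and slide 1 every control array, with a scan each, and an effect of the slide cannot be told apart from one of the compound. The 10 proximal tubule markers were all well above background on every array. That does not tell cortex from other kidney tissue that holds proximal tubule, so it is no check of the dissection. Their summed linear signal was 1575 to 1609 times the 75th percentile in treated animals and 1638 to 1774 times in controls, and limma called 1 of them, Aqp1, lower. Red blood cell markers had all treated animals above all controls for 5 of 5 genes, as had 14.1% of all genes tested, with a summed signal of 666 to 1023 in treated animals and 435 to 569 in controls. Limma called 1 of these higher, Gata1, whose probe was well above background in 3 treated and 0 control animals. Of 3 markers of smooth muscle and renin cells, all with higher means in treated animals, limma called 1 higher, the actin gene Acta2 (log2 difference 0.50, SE 0.085, limma adjusted p = 0.039), and their summed signal was 30.4 to 44.8 in treated animals and 23.3 to 30.8 in controls. The part of these marker lists in the results below was not tested. In bulk tissue, fewer cells of a type and less RNA per cell cannot be told apart.

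Of the 10 members, 9 were well above background on all 6 arrays. Sult1d1, which in mouse acts on catecholamines, was not well above background on any array at either of its 2 probes and is given no fold. Among all 12130 genes tested, limma's adjusted p passed 0.05 for 4.38%, made up of 1.33% lower and 3.05% higher in treated animals. Of the 9 measured members, 2 were called lower, Sult1a1 and Glyatl1, 0 were called higher and 7 did not pass. Without any one of the 6 arrays, limma called 0 of the 9. Over all 12130 genes, those 6 fits called only from 0 to 48 higher and from 0 to 6 lower. Groups did not overlap for 4 of the 9, all lower in treated animals, where 32.8% of all genes tested did not overlap in either direction and 18.7% were lower without overlap. The members' median log2 difference was -0.22, against -0.030 for all genes tested. Nothing is read from these counts, because the same contrast chose the members.

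**Figure D1:**
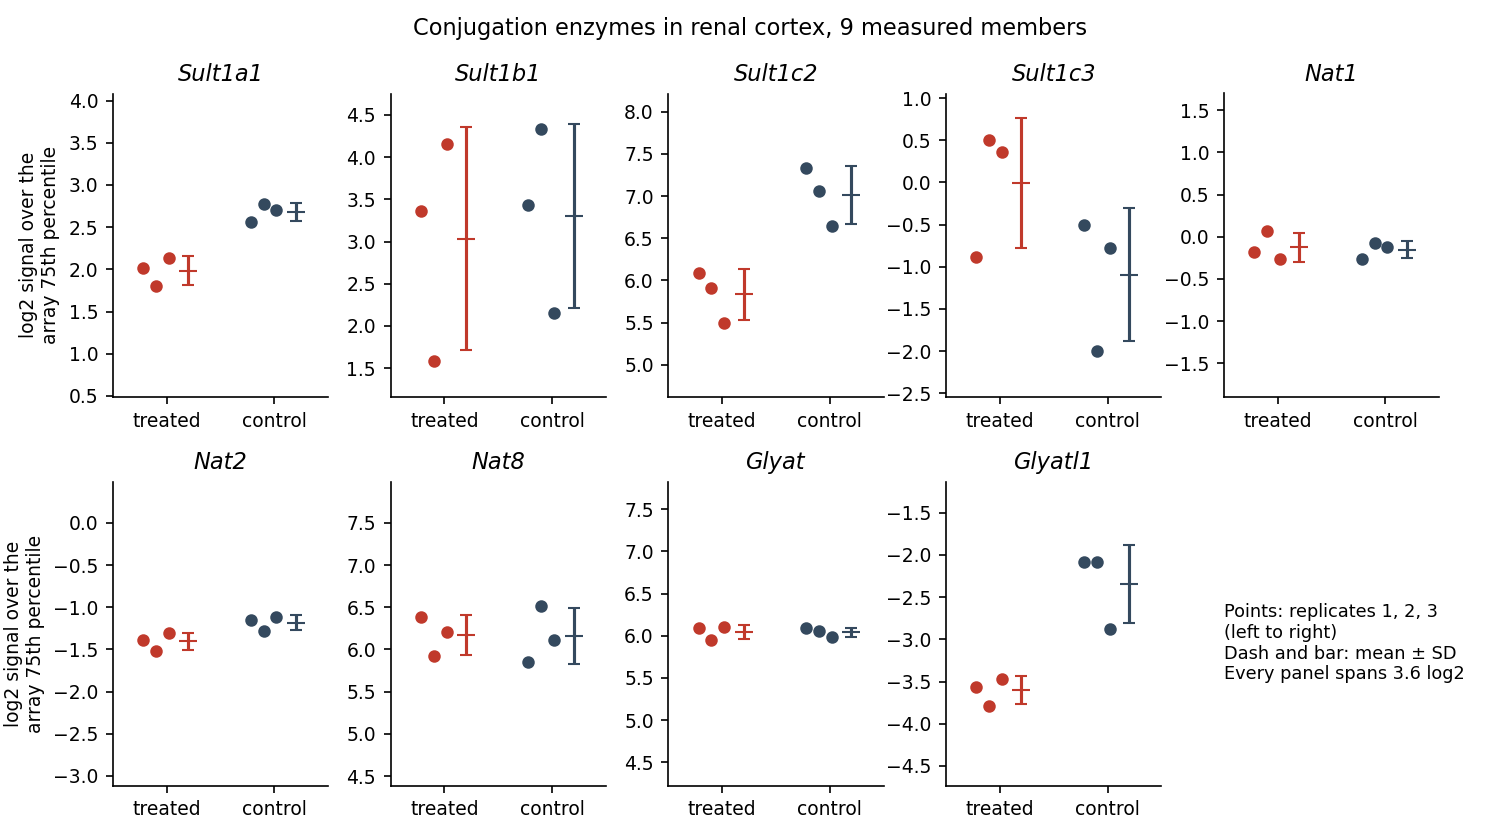
Level of the 9 measured members (vertical axis: log2 signal over the array's 75th percentile) in 3 treated and 3 control animals at each gene's brightest probe, with a point per animal and the mean ± SD beside the points. Treated and control points are apart for Sult1a1, Sult1c2, Nat2 and Glyatl1, lie within 0.15 of each other across all 6 animals for Glyat, and are widely spread in both groups for Sult1b1 and Sult1c3.

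Among the sulfotransferases, the kidney form Sult1c2, also known as sultK1, was lower in every treated animal at each of its 3 probes. At the brightest probe its level was 6.09, 5.91 and 5.50 in treated animals and 7.33, 7.06 and 6.64 in controls. The lowest control was thus above the highest treated animal. The means were 5.83 ± 0.30 in treated animals and 7.01 ± 0.35 in controls (SD, n = 3 each), a log2 difference of -1.18 (SE 0.23), or 2.27-fold lower. The other probes had log2 differences of -1.02 and -0.63, so the direction was shared by all 3 probes and the size was not. Sult1c2 lies in a chromosome 9 cluster with near relatives, next to Sult1c2al1, and its probe values are uncertain to that extent.

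Sult1a1, the main phenol sulfotransferase, had levels of 2.01, 1.799 and 2.14 in treated animals and 2.56, 2.77 and 2.71 in controls. All treated animals lay below all controls. The mean was 1.98 ± 0.17 in treated animals and 2.68 ± 0.11 in controls (SD, n = 3 each), a log2 difference of -0.69 (SE 0.11). Its second probe gave -0.74 and again no overlap, with 1.17 ± 0.16 in treated animals and 1.91 ± 0.11 in controls. The 2 probes followed each other from animal to animal within 0.071 on the log2 scale, once each was centred on its own mean.

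Sult1b1, which in rats sulfates thyroid hormones and simple phenols, showed no separation of the groups but a wide spread inside each. Its level was 3.36, 1.58 and 4.16 in treated animals and 3.43, 4.33 and 2.16 in controls. Treated replicate 2 and control replicate 3 were low, and the highest and lowest animals differed 6.74-fold. The means were 3.03 ± 1.32 in treated animals and 3.30 ± 1.09 in controls (SD, n = 3 each), a log2 difference of -0.27 (SE 0.83). That difference turned to 0.455 without treated replicate 2 and to 0.24 without control replicate 2. It was -0.437 without treated replicate 1, -0.834 without treated replicate 3 and -0.847 without control replicate 3, and -0.172 with a normexp background. All 3 probes showed the same animals high and low, with a range over the 6 arrays of 2.60 to 2.75 and a disagreement between centred probes of at most 0.11, so the spread is not that of a single spot.

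Sult1c3, a hepatic sulfotransferase of rats whose older name HAST-I comes from its action on hydroxylated arylamides, had levels of -0.89, 0.50 and 0.36 in treated animals and -0.51, -2.00 and -0.77 in controls. Treated replicates 2 and 3 were the highest animals, control replicate 2 was the lowest, and treated replicate 1 lay among the controls. The means were -0.01 ± 0.77 in treated animals and -1.09 ± 0.79 in controls (SD, n = 3 each), a log2 difference of 1.09 (SE 0.53) that was 0.63 without control replicate 2 and 1.53 without treated replicate 1. Its second probe gave 1.11. Both probes ranked control replicate 2 lowest and treated replicates 2 and 3 highest.

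**Figure D2:**
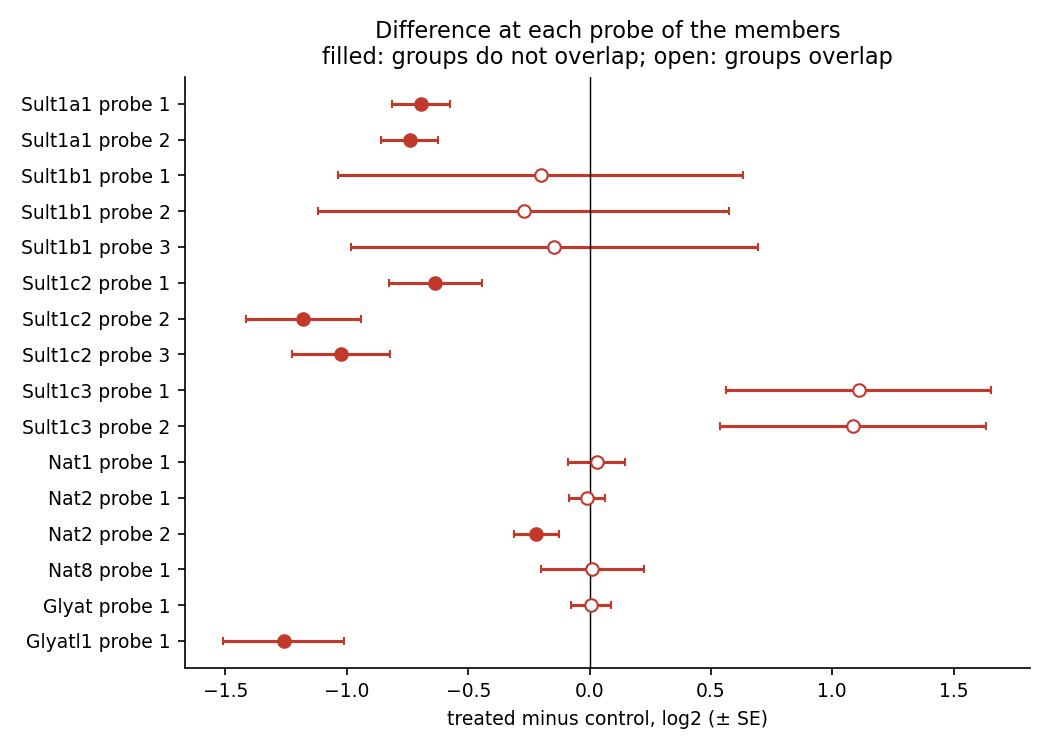
Treated minus control difference (horizontal axis: log2, ± SE from a limma fit over every non-control probe) at each of the 16 probes of the 9 measured members, filled where no treated animal overlaps a control. The 3 Sult1c2 probes lie from -1.18 to -0.63 and the 2 Sult1a1 probes at -0.69 and -0.74, while the 3 Sult1b1 probes have the longest bars.

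The spread between animals of one group is a measure other than the difference between groups. It comes from the same levels on which the members were selected, and is likewise a description. For Sult1b1 the SD within groups was 1.21 on the log2 scale, and 95 of 12130 genes, 0.783%, had a larger one. For Sult1c3 it was 0.78, with 1.95% of genes above it, whereas the median of all genes tested was 0.12. Glyat, at 0.072, was exceeded by 9098 of 12130 genes. Nat2, at 0.096, was also below that median, and Nat1 and Sult1a1, at 0.14 and 0.14, were above it.

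Markers of the late proximal tubule were set beside this spread. Slc7a13, an amino acid transporter of the last proximal segment, was at 4.17, 1.38 and 2.57 in treated animals and 2.51, 5.89 and 4.23 in controls. Slc22a7, an organic anion transporter, was at -1.48, -4.13 and -3.59 in treated animals and -3.88, -1.01 and -2.91 in controls. Within each group both genes were highest in the animal in which Sult1c3 was lowest, treated replicate 1 and control replicate 2. Sult1b1 was also highest in control replicate 2 among controls, but among treated animals it was highest in replicate 3. The other 2 measured markers of that list were also highest in control replicate 2 among controls, but not in treated replicate 1 among treated animals, and they varied less. Slc5a1, a glucose transporter, was at -1.81, -1.60 and -2.07 in treated animals and -1.92, -1.55 and -2.12 in controls. Slc3a1, the cystine transporter subunit, was at 7.77, 7.65 and 7.78 in treated animals and 7.59, 7.84 and 7.68 in controls. The fifth, Slc16a9, was not tested. The summed signal of the 4 measured markers was 203 to 237 in treated animals and 198 to 290 in controls. Highest levels in treated replicate 1 and control replicate 2 were not particular to this list. The thick ascending limb markers Umod, Slc12a1, Cldn16 and Cldn10 had them too, and Kcnj1, the other gene of their list, did not. Among the members, Nat8 was also highest in these animals of each group. The part of any of these markers in the levels of Sult1c3, Sult1b1 and Nat8 was not tested.

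**Figure D3:**
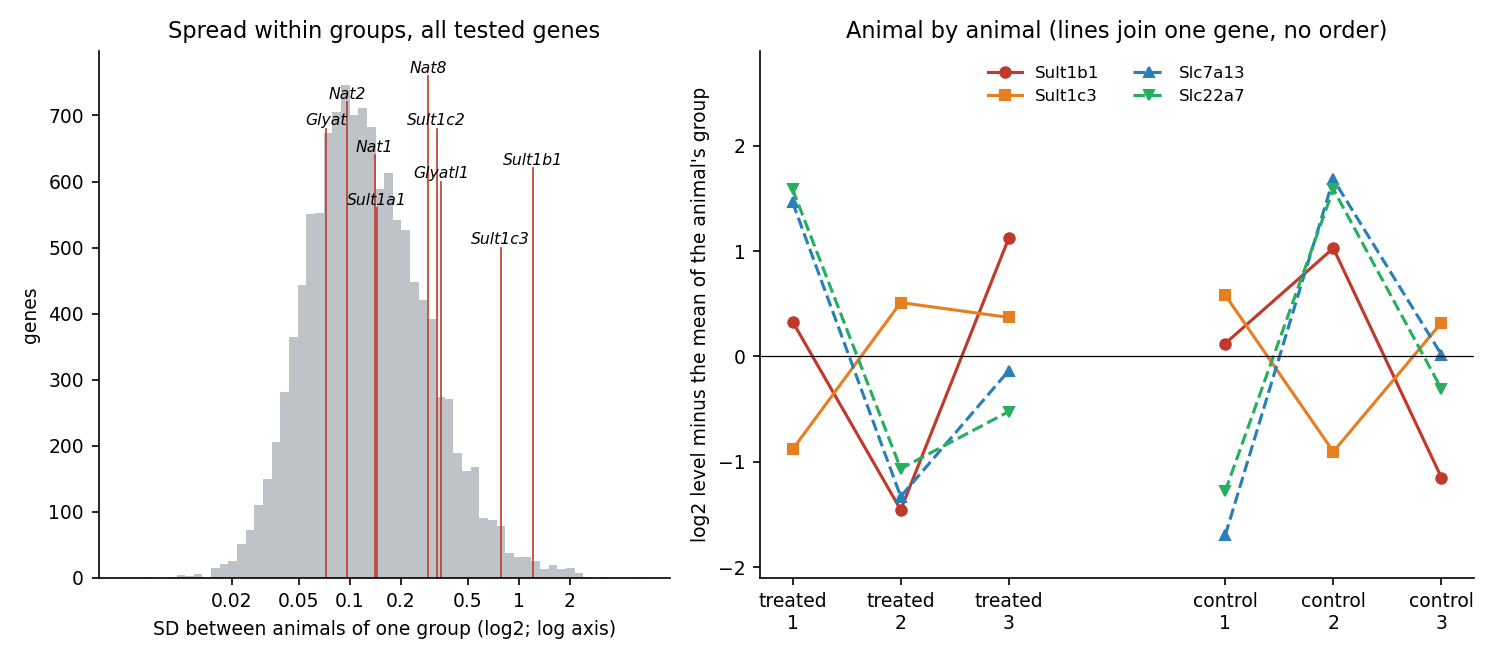
Left, the SD between animals of one group (horizontal log axis, log2 units) for all 12130 genes as a histogram, with a line at each measured member, Sult1b1 at 1.21 and Glyat at 0.072. Right, level minus the group mean (vertical axis, log2) in each of the 6 animals for Sult1b1, Sult1c3, Slc7a13 and Slc22a7, where Sult1c3 is lowest in treated replicate 1 and control replicate 2 and both transporters are highest there. These transporters are 2 of the 4 measured late proximal tubule markers. The others, Slc5a1 and Slc3a1, are not drawn and were not highest in treated replicate 1.

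The acetyltransferases differed little between the groups. Nat1, an arylamine N-acetyltransferase, had levels of -0.19, 0.06 and -0.26 in treated animals and -0.27, -0.08 and -0.12 in controls, fully overlapping. Its mean was -0.13 ± 0.17 in treated animals and -0.16 ± 0.10 in controls (SD, n = 3 each), a log2 difference of 0.029 (SE 0.11). Its neighbour Nat2, the second arylamine enzyme, was at -1.39, -1.51 and -1.31 in treated animals and -1.15, -1.285 and -1.12 in controls at the brightest probe. These values came close without overlapping, and the log2 difference was -0.22 (SE 0.081). The other Nat2 probe gave -0.010, with -1.75 ± 0.06 in treated animals and -1.74 ± 0.03 in controls, so the probes of Nat2 disagree on whether there is a difference. Nat1 and Nat2 lie side by side on chromosome 16 and are close relatives, and a probe may read both.

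Nat8 encodes an enzyme that in humans acetylates cysteine conjugates, the last step to mercapturic acids, and is known as an abundant kidney transcript. Its level was 6.39, 5.92 and 6.21 in treated animals and 5.85, 6.52 and 6.12 in controls. The groups overlapped throughout, with means of 6.17 ± 0.24 in treated animals and 6.16 ± 0.33 in controls (SD, n = 3 each) and a log2 difference of 0.012 (SE 0.20).

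Of the glycine acyltransferases, Glyat varied least. Its level was 6.09, 5.95 and 6.10 in treated animals and 6.09, 6.05 and 5.98 in controls, with a log2 difference of 0.0061 (SE 0.068). Highest and lowest animal differed 1.11-fold. Glyatl1, which in humans joins acyl groups to glutamine, is its neighbour on chromosome 1 and had levels of -3.56, -3.79 and -3.46 in treated animals and -2.08, -2.08 and -2.88 in controls. All treated animals were below all controls, and control replicate 3 was the control nearest to them. The means were -3.61 ± 0.17 in treated animals and -2.35 ± 0.46 in controls (SD, n = 3 each), a log2 difference of -1.26 (SE 0.24) or 2.39-fold lower. Glyatl1 is a dim probe, and a normexp background took the difference to -0.78.

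Glyatl1 had the largest difference among the measured members in these values, though not in every alternative. With a normexp background Sult1c2 had -1.12 and Sult1c3 0.963 against -0.777 for Glyatl1. Without treated replicate 1 Sult1c3 had 1.53 and Sult1c2 -1.31 against -1.28, and without treated replicate 2 Sult1c2 had -1.22 against -1.17. Without control replicate 1 Sult1c3 had 1.38 against -1.13, and without control replicate 2 Sult1c2 had -1.16 against -1.13. The genes with the most similar levels to Glyatl1, relative to each gene's control mean over the 6 arrays, were Tmem252, Dnajc5b and Col11a1. The root mean square difference from Glyatl1 was 0.15, 0.23 and 0.27 on the log2 scale. Tmem252 was at 2.36, 1.91 and 2.35 in treated animals and 3.65, 3.51 and 2.69 in controls, a likeness for which it was picked.

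Of 69 other genes of these pathways, 52 could be tested, and 1 was called higher, Aadac, and 1 lower, Anpep. That is 1 of 52 in each direction, where 3.05% of all genes tested were called higher and 1.33% lower. Their median log2 difference was -0.070, against -0.030 for all genes. Aadac encodes arylacetamide deacetylase, which takes acetyl groups off aromatic amides, the reverse of the Nat reaction. It was at 0.51, 0.63 and 0.31 in treated animals and -0.12, -0.62 and -0.40 in controls. It rose 1.83-fold, with every treated animal above every control (log2 difference 0.87, SE 0.15, limma adjusted p = 0.0409). Anpep, the brush border aminopeptidase that acts on peptides before mercapturates are formed, was at 3.595, 3.78 and 3.601 in treated animals and 4.26, 4.44 and 4.21 in controls, and fell by 0.65 on the log2 scale (SE 0.091, limma adjusted p = 0.0304). Neither call held when 1 array was left out, whichever it was (limma adjusted p from 0.0535 to 0.122 for Aadac and from 0.0685 to 0.0971 for Anpep). Over all 12130 genes, such fits called from 0 to 48 higher and from 0 to 6 lower, against 370 and 161 with all arrays. Losing the call is therefore not particular to Aadac and Anpep.

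Among all 12130 genes tested, the unadjusted p was under 0.05 for 1429 that were higher and 1604 that were lower in treated animals. In the supply of sulfate and PAPS, limma called 0 of 12 genes, and the unadjusted p was under 0.05 for 2, both lower. These were Papss2, which makes PAPS (log2 difference -0.33, SE 0.075, limma adjusted p = 0.0658), and Bpnt2, which removes the spent donor's phosphate (-0.46, SE 0.11, limma adjusted p = 0.0739). Papss2 was at 1.68, 1.62 and 1.61 in treated animals and 2.1048, 1.9043 and 1.9054 in controls. A normexp background and an intensity trend each brought 1 gene of this list, Papss2, past the threshold. With the mean of a gene's probes in place of the brightest, the log2 difference was only -0.175 for Papss2 and -0.189 for Bpnt2 (limma adjusted p = 0.269 and 0.209). Slc13a1, the brush border sulfate transporter, added after its values were known, differed by only 0.047 (SE 0.053). Bpnt1, another phosphatase of the spent donor, was added in the same way. It had a log2 difference of 0.10 (SE 0.089), and its groups overlapped.

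Among other sulfotransferases, 3 of 10 were measured and limma called 0 of them. At an unadjusted p under 0.05, 1 was lower, as were 1604 of all 12130 genes tested. Sult1c2a, a close relative of Sult1c2, was at 6.84, 6.81 and 6.58 in treated animals and 7.38, 7.23 and 6.93 in controls. Its groups did not overlap, and its log2 difference of -0.44 (SE 0.14) did not pass (limma adjusted p = 0.126). Sult2b1, which acts on cholesterol, had a log2 difference of 0.027 (SE 0.11). The estrogen and hydroxysteroid forms Sult1e1, Sult2a1, Sult2a2 and Sult2a6 were among the 7 not tested.

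For removal of sulfate, limma called 0 of 7 genes, and the unadjusted p was under 0.05 for 2, Sumf1 and Sumf2, both higher. Over all 12130 genes tested it was under 0.05 for 1429 that were higher and 1604 that were lower. Sumf1 encodes the enzyme that activates sulfatases and had a log2 difference of 0.25 (SE 0.063, limma adjusted p = 0.0868), which a normexp background took to 0.109 (limma adjusted p = 0.36). Sumf2, its relative, had one of 0.21 (SE 0.063, limma adjusted p = 0.117). For acyl-CoA activation and glycine supply, limma called 0 of 13 genes, and the unadjusted p was under 0.05 for 3 that were higher and 1 that was lower. The 2 with the smallest p were Amt, of the glycine cleavage system (-0.26, SE 0.059, limma adjusted p = 0.0677), and Gatm, which uses glycine to make guanidinoacetate (0.19, SE 0.062, limma adjusted p = 0.132). A normexp background and an intensity trend each called Amt lower. Of the 3 higher genes, Glyatl3 was well above background in 3 treated and 0 control animals. It passed the filter only through the group in which it was higher.

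Acsm2, a kidney acyl-CoA synthetase that feeds glycine conjugation and was likewise added, was at 7.63, 7.75 and 7.84 in treated animals and 7.91, 7.75 and 7.91 in controls, overlapping. Acsm3, another synthetase, picked because of its values, was at 4.96, 3.65 and 4.06 in treated animals and 2.64, 3.83 and 2.00 in controls. Its log2 difference of 1.40 (SE 0.55) was the largest of the 52 and did not pass (limma adjusted p = 0.192). Of 11 genes of acetyl transfer and deacetylation, limma called 1 higher, Aadac, and 10 did not pass, with 9 of the 11 means lower in treated animals. Acy3, an aminoacylase that removes acetyl groups from mercapturates, picked in the same way, showed a log2 difference of -0.64 (SE 0.15) and did not pass (limma adjusted p = 0.0693).

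**Figure D4:**
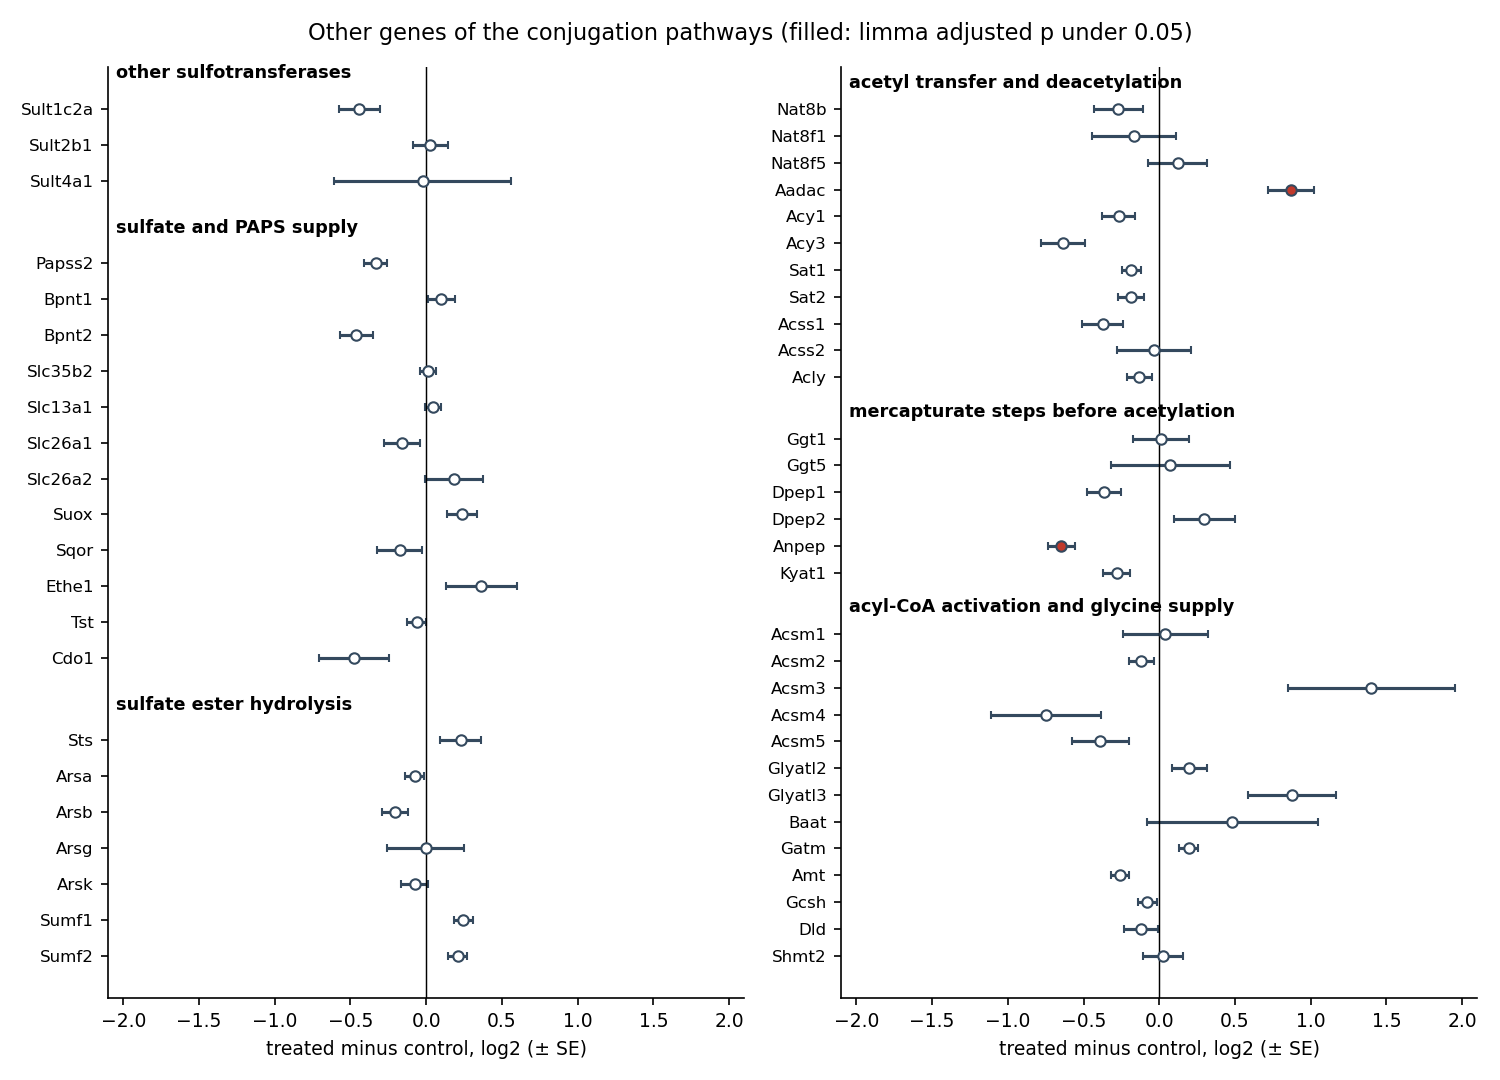
Treated minus control difference (horizontal axis: log2, ± SE from limma over all genes) of the 52 tested genes of 6 related lists, filled where limma's adjusted p was under 0.05. Aadac at 0.87 and Anpep at -0.65 are filled, and the other 50 are open, Acsm3 at 1.40 among them.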

How the data were processed

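Per the file headers, the authors' scanner files came from Feature Extraction 10.7.1.1 by Agilent, given as 10.7 in the submitters' processing notes, and the deposited intensity is a background-subtracted, detrended Cy3 signal not scaled between arrays. The authors' deposited table gives a ratio on a linear scale, the signal of each column over the array's 75th percentile (0.998 of it at values of 1 or more). The step is not stated in the sources used here, so scale and direction were settled by this comparison.

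Main values were log2 signals from which the array's own 75th percentile, over 61537 non-control probes, was subtracted. Between 1 and 3 outlier spots per array were left out, and 0 were saturated. Probe accessions were matched to RefSeq genes (GRCr8): 28206 probes had a name and 33331 had none. Genes needed a probe that all arrays of 1 group or both measured well above background, and the brightest such probe stood for the gene. The 12130 genes were compared with limma 3.58.1 (R 4.3.3), Benjamini-Hochberg over all genes, threshold 0.05, and 3033 had an unadjusted p under 0.05. The script was first tested on simulated data. Alternatives changed scaling, background, filter, probe choice, fit and the arrays used.

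Groups came from the labels, and the series' design text gives 3 biological replicates per group. The members and lists were chosen with earlier results of these data known. Named are all members, and up to 4 called genes of each list or else the 2 with the smallest p. So are the 3 genes nearest to the member with the largest difference, and exceptions are said. The markers Slc7a13 and Slc22a7 were picked because they move with a result. Probe sequences and proteins were not used here.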

Additional observations from a re-analysis of the deposited data

How the results depend on the processing

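Scaling, background, filter and probe choice were each changed in turn, as was the array left out. Members called lower were 2, and 1 with quantile scaling, median scaling or the mean of a gene's probes. They were 3 with a normexp background, with an intensity trend or with only probes above background on all 6 arrays. They were 0 without a filter on dim probes, 0 with the replicate number as a block and 0 without any one array. The sign of Sult1a1, Sult1c2, Sult1c3, Nat2 and Glyatl1 held in all 15 alternatives, and that of Sult1b1, Nat1, Nat8 and Glyat did not. Many alternatives could not turn a sign, so nothing is read from this. The replicate block and the intensity trend leave every difference as it was. For Sult1a1, Sult1c2, Nat2 and Glyatl1 the groups did not overlap, and leaving out 1 array cannot turn such a sign. Over all genes 370 were called higher and 161 lower, against 459 and 499 with a normexp background and 441 and 395 with an intensity trend. They were 37 and 7 without the filter, 229 and 63 with the mean of probes, 0 and 0 with the replicate block, and from 0 to 48 higher and 0 to 6 lower without 1 array. Normexp and the intensity trend each called 1 gene lower in 3 lists with 0 before: sulfate and PAPS supply, acetyl transfer, and acyl-CoA activation. Without the filter, with the replicate block and without any one array, the mercapturate list had 0 called lower and the acetyl transfer list 0 called higher, and the acetyl transfer list also had 0 with the mean of probes. The difference of Sult2b1 turned to -0.00677 with median scaling, -0.00194 without control replicate 2, and ran from -0.062 without control replicate 1 to 0.145 without control replicate 3. Deviations of same-numbered animals from their group means correlated at -0.118, -0.114 and 0.0891 across genes, so the numbers were not taken as a pairing. The cause of these changes was not tested. Slide or scan as a block was not run, because each held 1 group. The number of arrays and the low signal of Glyatl1 and Sult1d1 limit precision.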
